A study of Mus musculus with 6 samples.

Results

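Fgf3, Fgf8, Fgf15, Fgf17 and Fgf18 encode secreted fibroblast growth factors that pattern the embryonic brain, and their expression was followed in the dorsal telencephalon of FGF2-injected and vehicle-injected mouse embryos. They were chosen by gene symbol, each symbol matched 1 entry of the count files and 1 of the RPKM files, and together they make up 5 of the 37991 genes counted. The 3 FGF2 embryos (numbered 6, 7 and 8) were of the CD1 strain and had received 100 ng of FGF2 into the brain ventricles at E13.5. The 3 vehicle embryos (7, 8 and 9), also CD1 at E13.5, had received PBS with 0.1% BSA by the same route. All RNA came from formalin-fixed coronal cryosections mounted on slides, and how long after injection the embryos were collected is not stated in the labels. The study asked how gene expression differs after FGF2-induced folding of the mouse brain, so the question here is how these 5 ligands, which are normally made at the edges of the cortex, were expressed in each embryo.

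Fibroblast growth factors of this kind are secreted, bind heparan sulphate and FGF receptors on neighbouring cells, and signal through the ERK kinases, which switch on feedback inhibitors such as the Sprouty proteins. Fgf8 and its close relatives Fgf17 and Fgf18 are made at the rostral midline of the telencephalon and at the isthmus between midbrain and hindbrain, and in the cortex Fgf8 and Fgf17 promote frontal identity. Fgf15 is the mouse counterpart of human FGF19 and is made in the septum and in the diencephalon and midbrain, while Fgf3 is made at the rostral midline and in the hindbrain.

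The sequences of the 5 genes are shown for the same stretch of their coding regions, because reads were assigned by position and close relatives could in principle share reads. Each line gives 90 coding bases, 5′ to 3′, from the transcripts of the GENCODE M21 annotation (GRCm38). Capitals mark the 20 bases that were identical in all 5 genes.
Fgf3: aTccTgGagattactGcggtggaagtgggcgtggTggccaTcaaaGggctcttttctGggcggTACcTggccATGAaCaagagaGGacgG
Fgf8: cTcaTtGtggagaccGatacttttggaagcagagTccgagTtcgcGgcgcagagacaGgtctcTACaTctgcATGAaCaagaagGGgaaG
Fgf15: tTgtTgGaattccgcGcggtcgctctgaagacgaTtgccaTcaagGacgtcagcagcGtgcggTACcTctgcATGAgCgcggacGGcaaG
Fgf17: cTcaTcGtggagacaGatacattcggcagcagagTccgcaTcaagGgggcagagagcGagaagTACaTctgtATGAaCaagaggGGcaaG
Fgf18: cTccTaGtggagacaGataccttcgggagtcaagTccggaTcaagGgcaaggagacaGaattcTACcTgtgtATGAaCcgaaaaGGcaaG
These stretches cover coding bases 223 to 312 of Fgf3, 415 to 504 of Fgf8, and 256 to 345 of Fgf15, Fgf17 and Fgf18. Among Fgf8, Fgf17 and Fgf18 alone, 55 of the 90 bases were identical. Over the aligned coding regions Fgf8 and Fgf17 shared 68.7% of bases, Fgf17 and Fgf18 60.6%, and Fgf8 and Fgf18 59.9%, while the other pairs shared 38.1% to 44.6%. The longest exact run common to any pair of transcripts was 20 bases, between Fgf8 and Fgf17.

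Total counts per library were 64631136 to 81532334 in the FGF2 embryos and 61489462 to 68101511 in the vehicle embryos. Every count above 0 in vehicle 9 was even, against 51.0% to 51.9% in the others, so its alignments may have been counted double. Its read numbers below are as deposited; halved, its total would be 32112664. Reads of Y-linked genes numbered 10475 to 16232 in each FGF2 embryo and in vehicle 7 but only 22 in each of vehicle 8 and vehicle 9, so sex and injection were partly confounded. When libraries were weighted by quality, FGF2 8 had the lowest weight, 0.232, against 0.841 to 1.95 in the other 5. Markers of the dorsal pallium, the labelled tissue, were present in every library. The 16 listed genes summed to 1955.7, 1937.2 and 2251.4 library-scaled counts (CPM, counts scaled to a common library size) in FGF2 embryos 6, 7 and 8, against 2986.0, 3121.9 and 3220.6 CPM in vehicle embryos 7, 8 and 9.

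Of the 5 ligands, 4 (Fgf3, Fgf8, Fgf15 and Fgf17) rose in the FGF2 embryos, where 2.68% of the 21983 genes tested rose at an adjusted p under 0.05 in edgeR's quasi-likelihood test, 0.951% fell and 3.63% changed in either direction. These 4 had log2 fold changes over 3, as did 0.701% of the genes tested. Fgf18 was higher in each FGF2 embryo than in any vehicle embryo but did not pass the test. In 14.6% of all genes tested every FGF2 embryo lay above every vehicle embryo, as it did for each of the 5 ligands. By log2 fold change Fgf8 ranked 16, Fgf17 43, Fgf3 74, Fgf15 92 and Fgf18 1827 of the 21983 genes. In these bulk samples, more cells of a type and more RNA per cell cannot be told apart.

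**Figure D1:**
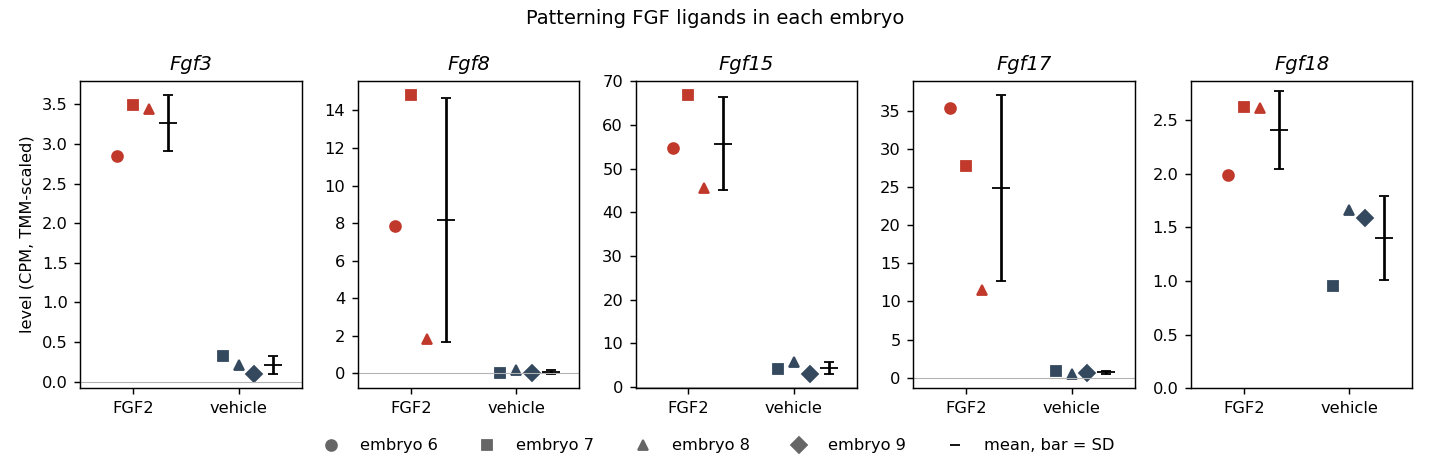
Level of each ligand in CPM (y axis, a separate scale in each panel) in the 3 FGF2 embryos (red) and the 3 vehicle embryos (blue), with each group's mean and SD (n = 3). Equal embryo numbers were not treated as pairs across groups. Every FGF2 embryo lies above every vehicle embryo in each panel, and FGF2 8 is far below FGF2 6 and 7 for Fgf8 and Fgf17.

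Fgf8, the organiser ligand of the rostral midline and the isthmus, was the closest to an on-off difference. Its gene (ENSMUSG00000025219, chromosome 19, 45811288 to 45817405, NCBIM37) held 659, 1051 and 117 reads in FGF2 embryos 6, 7 and 8, against 0, 12 and 0 reads in vehicle embryos 7, 8 and 9. On the CPM scale these were 7.83, 14.8 and 1.82 in the FGF2 embryos, against 0, 0.180 and 0 in the vehicle embryos. The FGF2 embryos all had Fgf8 reads, the highest of them many times the lowest, and only vehicle 8 among the vehicle embryos had any. The mean was 8.16 ± 6.504 CPM in FGF2 embryos against 0.0598 ± 0.104 CPM in vehicle embryos (SD, n = 3 each). The fitted log2 fold change was 7.00 ± 1.22 (SE; 95% interval 4.10 to 9.89; edgeR adjusted p = 0.0316).

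The mean CPM of the FGF2 embryos was 136-fold that of the 3 vehicle embryos. In vehicle 7, which had 0 reads, a floor of 3 reads per library corresponds to 0.0491 CPM, and the mean of the FGF2 embryos was at least 166-fold higher than that. The call for Fgf8 depended on single embryos. It was lost without FGF2 6 (adjusted p = 0.0744), FGF2 7 (0.0671), vehicle 7 (0.127), vehicle 8 (0.0884) or vehicle 9 (0.0859), and kept only without FGF2 8 (adjusted p = 0.0287).

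Fgf17, which patterns the frontal cortex and the midline cerebellum, had the second largest fold change of the 5. Its gene (ENSMUSG00000022101, chromosome 14, 71036012 to 71042075) held 2977, 1970 and 741 reads in FGF2 embryos 6, 7 and 8, against 57, 32 and 42 reads in vehicle embryos 7, 8 and 9. This gave 35.4, 27.8 and 11.5 CPM in the FGF2 embryos, against 0.932, 0.479 and 0.667 CPM in the vehicle embryos. FGF2 8 was again the lowest of its group, yet stood more than 10 CPM above every vehicle embryo. The mean was 24.9 ± 12.2 CPM in FGF2 embryos against 0.693 ± 0.228 CPM in vehicle embryos (SD, n = 3 each), with a log2 fold change of 5.17 ± 0.48 (SE; 95% interval 4.05 to 6.30; edgeR adjusted p = 0.00259).

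Fgf18, a ligand of the same subfamily that is also known for its part in bone and lung growth, differed least. Its gene (ENSMUSG00000057967, chromosome 11, 33017430 to 33047400) held 167, 186 and 168 reads in FGF2 embryos 6, 7 and 8, against 58, 111 and 100 reads in vehicle embryos 7, 8 and 9. The corresponding levels were 1.99, 2.62 and 2.61 CPM in the FGF2 embryos, against 0.949, 1.66 and 1.59 CPM in the vehicle embryos. The groups did not overlap, but the lowest FGF2 embryo and the highest vehicle embryo were close. The mean was 2.41 ± 0.36 CPM in FGF2 embryos against 1.40 ± 0.39 CPM in vehicle embryos (SD, n = 3 each). The log2 fold change was 0.78 ± 0.27 (SE; 95% interval 0.14 to 1.42), with an edgeR p of 0.0224 before adjustment and an adjusted p of 0.177.

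Fgf15, a ligand linked to neuronal differentiation in the embryonic brain, was the most abundant of the 5 in both groups. Its gene (ENSMUSG00000031073, chromosome 7, 152082437 to 152086858) held 4602, 4744 and 2933 reads in FGF2 embryos 6, 7 and 8, against 258, 382 and 190 reads in vehicle embryos 7, 8 and 9. The levels were 54.7, 66.9 and 45.6 CPM in the FGF2 embryos, against 4.22, 5.71 and 3.02 CPM in the vehicle embryos. Fgf15 was thus measured well above its floor in all 6 embryos, and the wide gap between the groups was repeated in every embryo. The mean was 55.7 ± 10.7 CPM in FGF2 embryos against 4.32 ± 1.35 CPM in vehicle embryos (SD, n = 3 each), with a log2 fold change of 3.69 ± 0.25 (SE; 95% interval 3.10 to 4.28; edgeR adjusted p = 0.00128). The span of Gm17685 covers 930 of the 4422 bases of the Fgf15 span, and strand was not stated, so reads in that stretch count for both genes. Gm17685 held 960, 995 and 488 reads in FGF2 embryos 6, 7 and 8, against 65, 84 and 72 reads in vehicle embryos 7, 8 and 9, fewer than Fgf15 in every library.

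Fgf3, known for inducing the inner ear, rose in all 3 FGF2 embryos to similar levels. Its gene (ENSMUSG00000031074, chromosome 7, 152023988 to 152030341) held 240, 248 and 221 reads in FGF2 embryos 6, 7 and 8, against 20, 14 and 6 reads in vehicle embryos 7, 8 and 9. The levels were 2.85, 3.50 and 3.44 CPM in the FGF2 embryos, against 0.327, 0.209 and 0.0952 CPM in the vehicle embryos. The 3 FGF2 embryos lay close together, in contrast to their Fgf8 and Fgf17 levels. The mean was 3.26 ± 0.36 CPM in FGF2 embryos against 0.211 ± 0.116 CPM in vehicle embryos (SD, n = 3 each), with a log2 fold change of 3.94 ± 0.40 (SE; 95% interval 3.03 to 4.86; edgeR adjusted p = 0.00291).

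The calls of Fgf3, Fgf15 and Fgf17 were kept whichever single embryo was left out, at adjusted p of up to 0.0288, 0.00963 and 0.0200 in edgeR. On the log2(RPKM + 1) scale, where low levels are compressed, the fold changes were smaller for Fgf3 (1.05, limma adjusted p = 0.00262) and Fgf8 (2.33, adjusted p = 0.0664). With embryo sex as a covariate, a fit in which vehicle 7 is the only vehicle embryo of the same sex as the FGF2 embryos, 0 of the 5 ligands were called. Against vehicle 7 alone, the mean CPM of the FGF2 embryos was 9.97-fold higher for Fgf3, 13.2-fold for Fgf15, 26.7-fold for Fgf17 and 2.54-fold for Fgf18. These folds have no replicate on the vehicle side and carry no test.

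To compare levels between genes, the deposited RPKM values, which are scaled for gene model length, were used. The summed RPKM of the 5 ligands was 59.7, 68.8 and 36.3 in FGF2 embryos 6, 7 and 8, against 3.50, 4.63 and 3.27 in vehicle embryos 7, 8 and 9. Every FGF2 embryo therefore had several times the ligand RNA of any vehicle embryo, with means of 54.9 ± 16.8 RPKM in FGF2 embryos and 3.80 ± 0.73 RPKM in vehicle embryos (SD, n = 3 each). Fgf15 was the largest component in every library, at 53.4%, 57.4% and 69.8% of the sum in FGF2 embryos 6, 7 and 8, against 69.0%, 66.7% and 49.9% in vehicle embryos 7, 8 and 9. What came after Fgf15 differed between the groups. Fgf17 made up 33.9%, 23.7% and 17.3% in FGF2 embryos 6, 7 and 8, against 6.79%, 2.92% and 9.46% in vehicle embryos 7, 8 and 9. Fgf18 made up 2.51%, 2.71% and 6.12% in FGF2 embryos 6, 7 and 8, against 20.03%, 26.1% and 39.3% in vehicle embryos 7, 8 and 9. The second ligand was therefore Fgf17 in each FGF2 embryo and Fgf18 in each vehicle embryo.

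**Figure D2:**
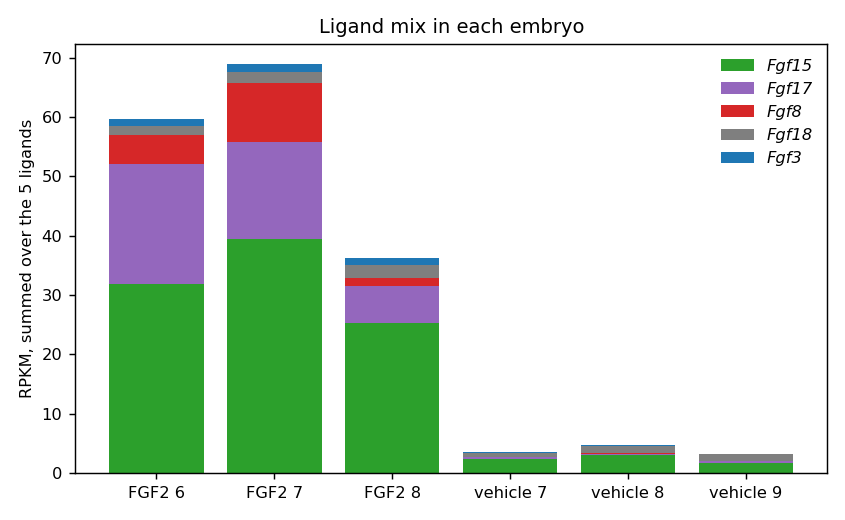
RPKM of the 5 ligands stacked in each embryo (y axis, RPKM; x axis, FGF2 embryos then vehicle embryos). The stacks reach 36.3 to 68.8 RPKM in the FGF2 embryos and 3.27 to 4.63 RPKM in the vehicle embryos, with Fgf15 the largest layer in all 6.

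In mean RPKM over the FGF2 embryos the order was Fgf15 (32.2 ± 7.1), Fgf17 (14.3 ± 7.2), Fgf8 (5.31 ± 4.34), Fgf18 (1.86 ± 0.36) and Fgf3 (1.27 ± 0.08; SD, n = 3 each). Over the vehicle embryos it was Fgf15 (2.38 ± 0.73), Fgf18 (1.06 ± 0.32), Fgf17 (0.227 ± 0.088), Fgf3 (0.0947 ± 0.0513) and Fgf8 (0.0352 ± 0.0609). Among FGF2 embryos the RPKM of Fgf8 in FGF2 8 (1.19) lay below that of Fgf18 there (2.22), so Fgf8 and Fgf18 changed places in that embryo. In the FGF2 order, the ranges of Fgf17 and Fgf8 overlapped, as did those of Fgf8 and Fgf18. Within each FGF2 embryo, though, Fgf17 (20.2, 16.3 and 6.27 RPKM in embryos 6, 7 and 8) lay above Fgf8 (4.91, 9.84 and 1.19). Fgf15 lay above Fgf17 in every FGF2 embryo, and Fgf18 and Fgf3 did not overlap, at 1.497 to 2.22 and 1.18 to 1.35 RPKM. In the vehicle order, the ranges of Fgf17 and Fgf3 overlapped, as did those of Fgf3 and Fgf8. Fgf17 lay above Fgf3 within each vehicle embryo, whereas Fgf8 lay above Fgf3 in vehicle 8.

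Whether the other ligands changed more than Fgf18 was tested on the log2 ratio of each to Fgf18 within an embryo, with 0.5 CPM added. Fgf18 had the smallest fold change of the 5 in these same data, which favours a rise of each ratio. The 4 ratios share Fgf18 and are not independent. The ratio to Fgf18 was higher in FGF2 than in vehicle embryos by 3.66 for Fgf17, 2.96 for Fgf8, 2.94 for Fgf15 and 1.78 for Fgf3. With 0.1 CPM added the differences were 4.10, 4.67, 2.92 and 2.73 for Fgf17, Fgf8, Fgf15 and Fgf3, and with RPKM in place of CPM they were 3.596, 2.49, 2.91 and 0.97, so the order of the ligands depended on the scale. For each of the 4 ratios every FGF2 embryo lay above every vehicle embryo. The two-sided exact permutation p was 0.1 for each, also after adjustment over the 4 ratios, which is the smallest value that 3 embryos against 3 allow.

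Over the 3 FGF2 embryos the ligands did not share a single order. Fgf3 was highest in FGF2 7 and lowest in FGF2 6, with the highest embryo 1.23 times the lowest, and Fgf18 had the same order at 1.32 times. For both ligands FGF2 7 and 8 were nearly equal and the counting-error intervals given below overlapped in all 3 embryos, so this order is not resolved. Fgf8 and Fgf15 were both highest in FGF2 7 and lowest in FGF2 8, but the highest embryo had 8.14 times the lowest for Fgf8 and 1.47 times for Fgf15. Fgf17 was highest in FGF2 6 and lowest in FGF2 8, at 3.07 times. FGF2 8 was thus the low embryo for Fgf8, Fgf15 and Fgf17 and not for Fgf3 and Fgf18.

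The difference between FGF2 embryos was beyond counting error for Fgf8, Fgf15 and Fgf17. For Fgf8 in FGF2 8 the exact 95% Poisson interval was 1.505 to 2.18 CPM, against 13.9 to 15.7 CPM in FGF2 7. For Fgf17 it was 10.7 to 12.4 CPM in FGF2 8, against 34.1 to 36.7 CPM in FGF2 6. For Fgf15 the intervals of FGF2 embryos 6, 7 and 8 were 53.1 to 56.3, 65.0 to 68.8 and 44.0 to 47.3 CPM, which do not overlap. For Fgf18 the intervals of all 3 FGF2 embryos overlapped, at 1.70 to 2.31, 2.26 to 3.03 and 2.23 to 3.04 CPM in embryos 6, 7 and 8. Those of Fgf3 overlapped too, at 2.50 to 3.24, 3.07 to 3.96 and 3.00 to 3.92 CPM. Such intervals cover counting error only, and they are too narrow where mates of a pair were counted separately.

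**Figure D3:**
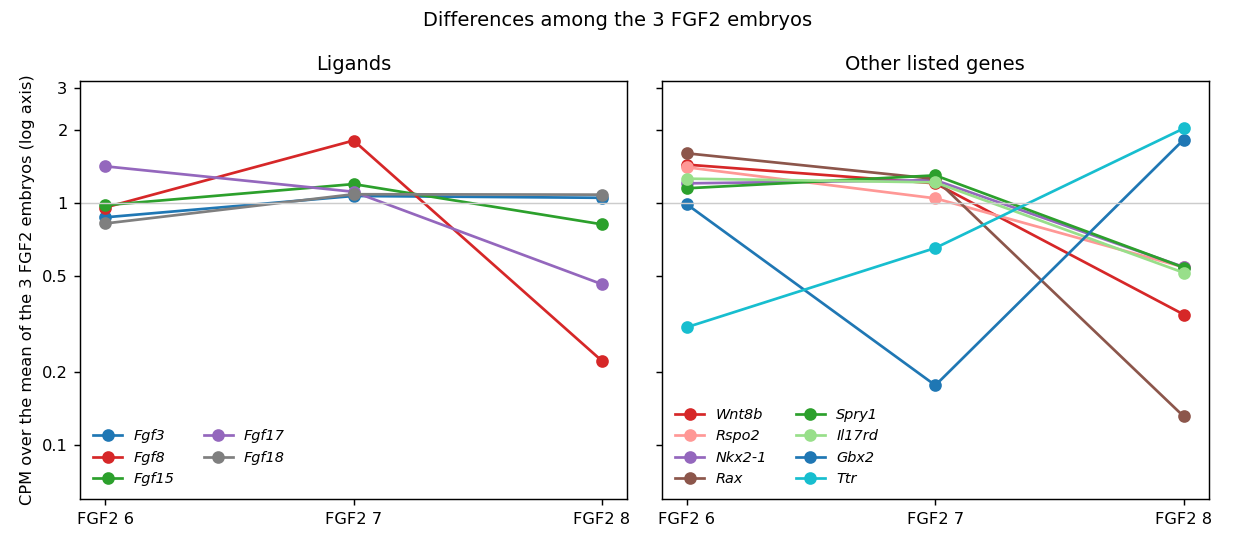
CPM of each gene in FGF2 embryos 6, 7 and 8 divided by its mean over these 3 embryos (y axis, log scale), for the 5 ligands (left) and for 8 listed genes of other groups (right). Fgf8 and Fgf17 drop in FGF2 8 while Fgf3 and Fgf18 do not, and Gbx2 and Ttr peak in FGF2 8.

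Set against the 590 genes that rose, for which the median ratio of the highest to the lowest FGF2 embryo was 1.47, Fgf8 was more variable than 98.98% and Fgf17 than 95.4% of them. Fgf15 lay at the middle, above 50% of them, and Fgf3 above 22.2%. FGF2 8 was the lowest embryo for 178 of these 590 genes (30.2%), against 206 each for FGF2 6 and FGF2 7. The 590 genes passed a test with FGF2 8 included, which disfavours genes that vary among FGF2 embryos. These shares therefore hold for this set only. A root mean square (RMS) distance between centred log2(CPM + 0.5) profiles over the 3 FGF2 embryos gave the closest pair as Fgf3 and Fgf18, at 0.04. Both were nearly flat over these embryos, within counting error. The distance was 0.65 between Fgf8 and Fgf17, 0.24 between Fgf3 and Fgf15, and largest between Fgf8 and Fgf18, at 1.17. With 3 embryos these distances are descriptions and no correlation is given.

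For each ligand that rose, the 4 named genes with the most similar profile over all 6 embryos, by the same distance, were then listed among genes averaging at least 1 CPM in the FGF2 embryos. Nearest to Fgf8 were Wnt8b, a Wnt ligand of the medial cortex (RMS distance 0.56), Gli1, a target of Hedgehog signalling (0.60), Rspo2, a secreted enhancer of Wnt signalling (0.60), and Nkx2-1, a transcription factor of the medial ganglionic eminence and hypothalamus (0.62). Nearest to Fgf17 were Rspo2 (0.24), Nkx2-1 (0.32), Lhx8, which acts with Nkx2-1 in cholinergic neurons (0.37), and Ccno, a gene of multiciliated cells (0.49). Fgf15 was nearest to Gli1 (0.27), Ccno (0.34), Fezf1, a transcription factor of the forebrain (0.36), and Pnoc, a neuropeptide precursor (0.40). Fgf3 was nearest to Lrrc23 (0.17), Olig1, a transcription factor of ventral progenitors and oligodendrocytes (0.20), Sowaha (0.20) and Ano1, a calcium-activated chloride channel (0.20). All 12 of these genes rose, which their choice by likeness to ligands that rose largely fixes.

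Wnt8b and Rspo2 shared the low value of Fgf8 and Fgf17 in FGF2 8, which their choice by likeness over all embryos favoured. Wnt8b had 35.8, 30.0 and 8.60 CPM in FGF2 embryos 6, 7 and 8, against 0.229, 0.913 and 0.889 CPM in vehicle embryos 7, 8 and 9. Rspo2 had 25.8, 19.2 and 9.95 CPM in FGF2 embryos 6, 7 and 8, against 0.671, 0.553 and 0.730 CPM in vehicle embryos 7, 8 and 9. Nkx2-1 had 58.8, 60.7 and 26.5 CPM in FGF2 embryos 6, 7 and 8, against 1.505, 2.06 and 1.33 CPM in vehicle embryos 7, 8 and 9. For these 3 genes, as for Fgf17, FGF2 8 was the lowest FGF2 embryo but stood above every vehicle embryo. Of the 12 similar genes, the call of Wnt8b alone was lost when a single embryo was left out, namely vehicle 8 (adjusted p = 0.0654).

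Most named neighbours of the ligands in the genome did not pass the test, which 3.63% of all genes tested passed. Fgf8, Fgf17 and Fgf18 each lie next to a gene of the nucleoplasmin family of histone chaperones. Npm3 lies 4.82 kb from Fgf8 and stood at 34.2 ± 4.7 CPM in FGF2 embryos against 29.9 ± 2.3 CPM in vehicle embryos (log2 fold change 0.19, edgeR adjusted p = 0.426). Npm2 lies 5.03 kb from Fgf17 and stood at 1.78 ± 0.17 against 1.67 ± 0.17 CPM (0.09, adjusted p = 0.849), and Npm1 lies 4.89 kb from Fgf18 and stood at 982 ± 141 against 839 ± 91 CPM (0.23, adjusted p = 0.399; FGF2 then vehicle, SD, n = 3 each). None of the 3 nucleoplasmin genes passed the test. On the other side, Epb4.9, a cytoskeletal protein gene 0.226 kb from Fgf17, stood at 13.2 ± 2.5 CPM in FGF2 embryos against 6.48 ± 1.76 CPM in vehicle embryos and did not pass (log2 fold change 1.02, adjusted p = 0.0567). Fbxw4, 76.5 kb from Fgf8, and Fbxw11, 371 kb from Fgf18, did not pass either, at log2 fold changes of 0.29 and -0.16.

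Fgf3 and Fgf15 lie 52.1 kb apart on chromosome 7, with Fgf4, an FGF ligand of the early embryo, between them. Fgf4 had 0 reads in all 6 libraries, while Fgf3 and Fgf15 on either side of it rose. Beyond Fgf15, Oraov1 stood 14.1 kb away at 110 ± 16 CPM in FGF2 embryos against 97.6 ± 5.2 CPM in vehicle embryos (SD, n = 3 each) and did not pass (log2 fold change 0.17, edgeR adjusted p = 0.453). Beyond Fgf3, Ano1 was 86.1 kb away and had 45.3, 47.7 and 35.1 CPM in FGF2 embryos 6, 7 and 8, against 10.4, 7.46 and 5.78 CPM in vehicle embryos 7, 8 and 9. Ano1 rose by 2.44 ± 0.23 on the log2 scale (SE, edgeR adjusted p = 0.00238) and kept its call whichever embryo was left out. Within 100 kb of the 5 ligands, 18 other named genes were tested, of which Ano1 alone rose and 0 fell, and their median log2 fold change was 0.06. Over all genes tested 2.68% rose, 0.951% fell and the median was 0.01.

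**Figure D4:**
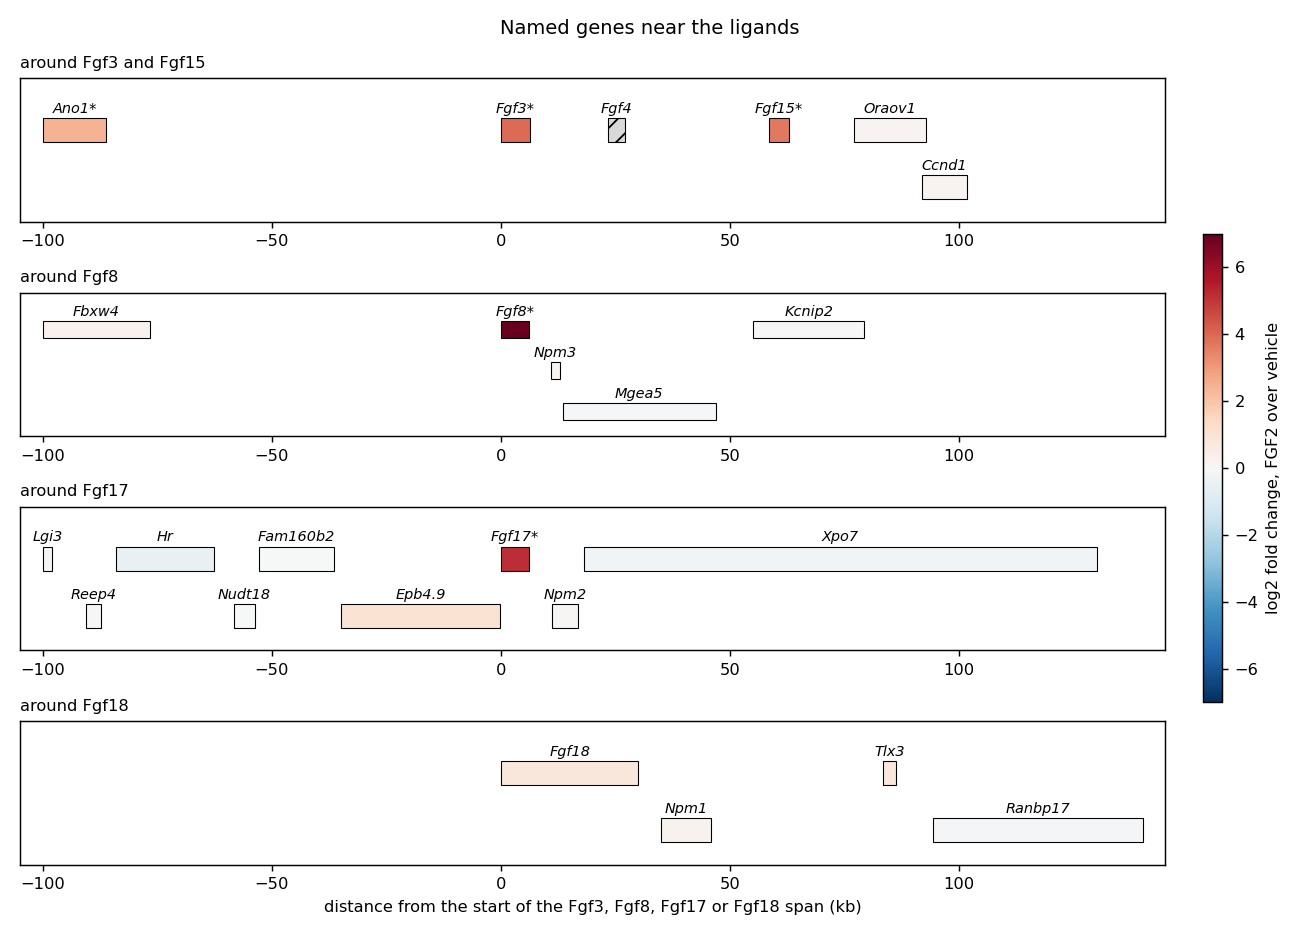
Spans of named genes within 100 kb of Fgf3 and Fgf15, Fgf8, Fgf17 and Fgf18 (x axis, distance in kb; bars that run beyond the window are clipped), coloured by log2 fold change of FGF2 over vehicle; asterisks mark adjusted p under 0.05 and hatching a gene that was not tested. Fgf3, Fgf8, Fgf15, Fgf17 and Ano1 stand out in colour, and Fgf18 does not.

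No ligand outside the 5 passed the test. Of 13 other secreted FGF ligands 9 had enough reads to be tested, 0 rose, 0 fell and 9 did not pass, with a median log2 fold change of 0.42 against 0.01 over all genes tested. Fgf10, known to promote the transition to radial glia in the rostral cortex, had 1.31, 2.07 and 1.74 CPM in FGF2 embryos 6, 7 and 8, against 0.8505, 0.658 and 0.571 CPM in vehicle embryos 7, 8 and 9 (log2 fold change 1.30, edgeR adjusted p = 0.0508). Fgf9, a ligand made by neurons, had 4.37, 4.65 and 9.11 CPM in FGF2 embryos 6, 7 and 8, against 3.11, 3.02 and 2.89 CPM in vehicle embryos 7, 8 and 9 (1.01, adjusted p = 0.117). Both were higher in each FGF2 embryo without passing, and Fgf10 was called in 1 of the 6 fits that left out a single embryo. The message of Fgf2 itself had 14.7, 11.95 and 11.8 CPM in FGF2 embryos 6, 7 and 8, against 13.4, 13.1 and 11.9 CPM in vehicle embryos 7, 8 and 9, over a span that 5 others overlap. The log2 fold change of Fgf2 was 0.00 ± 0.13 (SE).

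Among FGF receptors and co-receptors, 1 of 10 rose, 0 fell and 9 did not pass, and the median of their log2 fold changes was 0.02. Over all genes tested 2.68% rose, 0.951% fell and the median was 0.01. The gene that rose was Flrt2, a membrane protein that binds FGF receptors, with 59.5, 64.5 and 70.9 CPM in FGF2 embryos 6, 7 and 8, against 46.6, 47.4 and 44.7 CPM in vehicle embryos 7, 8 and 9 (log2 fold change 0.49, edgeR adjusted p = 0.0257). Its call was lost without FGF2 7 or any single vehicle embryo (adjusted p up to 0.119). Fgfr1 and Fgfr3, which encode receptors of cortical progenitors, did not pass, at log2 fold changes of -0.11 ± 0.08 and -0.22 ± 0.23 (SE). Klb, the co-receptor through which Fgf15 acts in the liver, stood at 0.856, 0.522 and 0.669 CPM in FGF2 embryos 6, 7 and 8, against 0.523, 0.568 and 0.667 CPM in vehicle embryos 7, 8 and 9. Klb did not pass, at a log2 fold change of 0.22 ± 0.31 (SE).

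Feedback inhibitors and targets that FGF signalling induces rose in part. Of 13 tested genes 3 rose, 0 fell and 10 did not pass, with a median log2 fold change of 0.69. In 6 of the 13 every FGF2 embryo lay above every vehicle embryo, against 14.6% of all genes tested. Dusp4, Etv5 and Spred2 went the other way, with every FGF2 embryo below every vehicle embryo. They did not pass, at log2 fold changes of -0.76, -0.43 and -0.20. How many of all genes tested lay below in this way was not counted. Spry1, a Sprouty inhibitor of the ERK pathway, had 48.2, 54.6 and 22.7 CPM in FGF2 embryos 6, 7 and 8, against 8.80, 10.7 and 10.03 CPM in vehicle embryos 7, 8 and 9 (log2 fold change 2.09 ± 0.30, SE, edgeR adjusted p = 0.0132). Spry1 shared the order of Fgf8 and Fgf15 over the FGF2 embryos, with FGF2 7 highest and FGF2 8 lowest. Spry2, of the same family, rose by 0.75, and Dusp6, a phosphatase that inactivates ERK, by 0.80 on the log2 scale. Il17rd, a membrane inhibitor of FGF signalling, had 42.5, 41.0 and 17.4 CPM in FGF2 embryos 6, 7 and 8, against 17.9, 15.8 and 16.1 CPM in vehicle embryos 7, 8 and 9. Il17rd in FGF2 8 lay within the range of the vehicle embryos and the gene did not pass (adjusted p = 0.126). Spry1 lost its call without any single vehicle embryo (adjusted p up to 0.0834). Spry2 and Dusp6 lost theirs without FGF2 6, FGF2 7 or any single vehicle embryo, at adjusted p of up to 0.124 and 0.163.

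**Figure D5:**
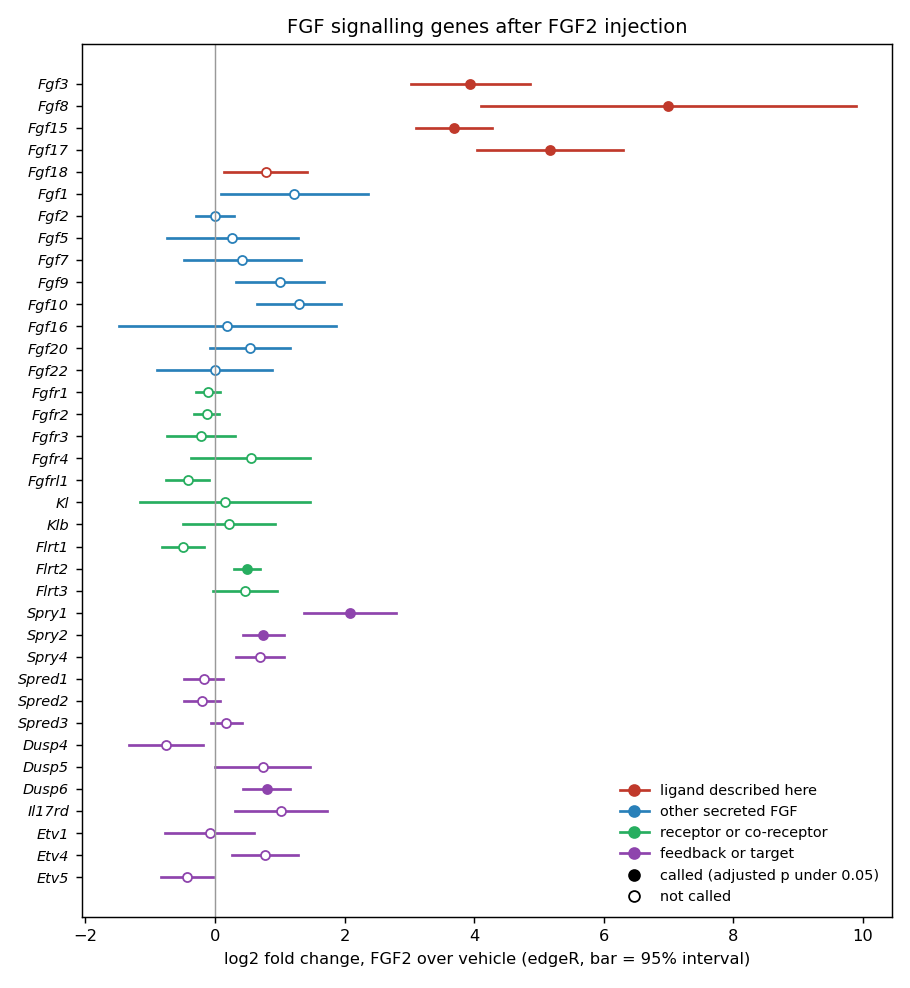
Log2 fold change of FGF2 over vehicle with its 95% interval (x axis, edgeR) for the 5 ligands and the tested genes of the other FGF lists (y axis). The filled red points of Fgf3, Fgf8, Fgf15 and Fgf17 lie at 3.69 to 7.00, above every other gene plotted, the highest of which is Spry1 at 2.09.

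Genes of the territories in which these ligands are normally made were measured beside them. For comparison, 2.68% of all genes tested rose and 0.951% fell, and their median log2 fold change was 0.01. In the list of rostral midline and septum, where Fgf8, Fgf17 and Fgf15 are expressed, 7 of 9 tested genes rose, among them Six3, Zic1, Zic2, Zic4, Zic5 and Shh, 0 fell and 2 did not pass, and the median log2 fold change was 1.29. The call of Six3 was lost in 5 of the 6 fits that left out a single embryo, all but that without vehicle 9 (adjusted p up to 0.102). Zic2 lost its call without any single vehicle embryo (adjusted p up to 0.0756) and Zic5 without vehicle 8 (0.0662). Zic4, a zinc finger factor of the septum, had 248.5, 213 and 212 CPM in FGF2 embryos 6, 7 and 8, against 74.7, 71.2 and 59.1 CPM in vehicle embryos 7, 8 and 9. Sp8, a transcription factor that acts with Fgf8 at the rostral midline, had 39.4, 42.5 and 28.7 CPM in FGF2 embryos 6, 7 and 8, against 30.7, 30.6 and 32.6 CPM in vehicle embryos 7, 8 and 9, and did not pass. The members of this list summed to 1197.5 to 1304.2 CPM in FGF2 embryos and 815.0 to 869.9 CPM in vehicle embryos, and Hesx1 was at 0 in all 3 vehicle embryos. Their part in the rise of the ligands was not tested.

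The list of isthmus and midbrain, the other source of Fgf8, Fgf17 and Fgf18, had 3 of 9 tested genes that rose (Pax3, Otx2 and Gbx2), 0 that fell and 6 that did not pass, with a median log2 fold change of 3.21. Its defining gene En1 had 6.46, 7.15 and 5.22 CPM in FGF2 embryos 6, 7 and 8, against 7.33, 6.60 and 6.76 CPM in vehicle embryos 7, 8 and 9, and did not pass. En2 and Wnt1 stood at no more than 0.214 CPM in any library and were too low to test. In the hindbrain list, where Fgf3 is normally made, 0 of 4 tested genes rose, 0 fell and 4 did not pass, with a median of -0.41. The isthmus and midbrain list summed to 93.2 to 122 CPM in FGF2 embryos and 27.7 to 28.5 CPM in vehicle embryos, and the hindbrain list to 10.2 to 16.5 CPM in FGF2 embryos and 12.7 to 15.7 CPM in vehicle embryos. The largest part of the isthmus sum in FGF2 embryos 6, 7 and 8 was Otx2, at 74.5, 60.8 and 42.7 CPM. Otx2 had 1.946, 1.945 and 0.444 CPM in vehicle embryos 7, 8 and 9. Otx2 is also in the choroid plexus list, and Gbx2 is also in the thalamus list. No gene of the isthmus list or the hindbrain list was at 0 in all vehicle embryos.

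Of the diencephalic lists, the sum of that of the hypothalamus had the order of Fgf8 over the FGF2 embryos and that of the thalamus did not. In the hypothalamus and optic list 2 of 7 tested genes rose (Nkx2-1 and Fezf1), 0 fell and 5 did not pass, with a median of 0.63. Among all genes tested 2.68% rose and 0.951% fell, with a median of 0.01. The hypothalamus and optic list summed to 104, 108 and 66.7 CPM in FGF2 embryos 6, 7 and 8, against 16.9, 17.4 and 14.2 CPM in vehicle embryos 7, 8 and 9. Its largest part in FGF2 embryos 6, 7 and 8 was Nkx2-1, at 58.8, 60.7 and 26.5 CPM. Nkx2-1 is also in the ventral telencephalon list and was named above for its likeness to Fgf8. The other risen gene of the hypothalamus list, Fezf1, had 14.5, 12.2 and 7.53 CPM in FGF2 embryos 6, 7 and 8, another order. Rax, a gene of the early hypothalamus and eye field too low to test, had 1.33, 1.04 and 0.109 CPM in FGF2 embryos 6, 7 and 8 and was the member of this list at 0 in every vehicle embryo. Rax was thus, like Fgf8, lowest among the FGF2 embryos in FGF2 8. In the thalamus and diencephalon list 5 of 10 tested genes rose (Gbx2, Tcf7l2, Barhl2, Olig3 and Foxa1), 0 fell and 5 did not pass, with a median of 2.71 and sums of 327, 154 and 342 CPM in FGF2 embryos 6, 7 and 8, against 100.6, 110 and 100.8 CPM in vehicle embryos 7, 8 and 9. Gbx2, a thalamic and isthmic transcription factor, had 11.99, 2.14 and 22.2 CPM in FGF2 embryos 6, 7 and 8, against 0, 0.180 and 0.0635 CPM in vehicle embryos 7, 8 and 9. It was highest where Fgf8 was lowest and lowest where Fgf8 was highest. The calls of Gbx2, Tcf7l2, Barhl2 and Foxa1 were lost without single embryos of either group (adjusted p up to 0.155), and that of Olig3 was kept.

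The other territory lists also differed, and their part in the rise of the ligands was not tested. They are set beside 2.68% risen and 0.951% fallen among all genes tested, and a median of 0.01. Of 13 ventral telencephalon genes 10 rose, 0 fell and 3 did not pass, with a median of 2.91 and sums of 606 to 836 CPM in FGF2 embryos and 71.0 to 188 CPM in vehicle embryos; Gsx1 was at 0 in every vehicle embryo. Of 14 cortical hem and dorsal midline genes 8 rose, 0 fell and 6 did not pass, with a median of 1.09. This list summed to 326, 263 and 162 CPM in FGF2 embryos 6, 7 and 8, against 115, 115 and 125 CPM in vehicle embryos 7, 8 and 9, which is the order of Fgf17 over the FGF2 embryos. Of 10 choroid plexus genes 7 rose, 1 fell and 2 did not pass, with a median of 4.31. Their sum was 193, 263 and 505 CPM in FGF2 embryos 6, 7 and 8, against 30.7, 32.2 and 29.2 CPM in vehicle embryos 7, 8 and 9. The rise of that sum in FGF2 8 was that of Ttr, the transthyretin carrier, and without Ttr the list summed to 134, 138 and 113 CPM in FGF2 embryos 6, 7 and 8, against 30.4, 32.1 and 28.7 CPM in vehicle embryos 7, 8 and 9. Of the 16 dorsal pallium genes 5 fell (Emx1, Pax6, Eomes, Neurog2 and Tfap2c), 0 rose and 11 did not pass, with a median of -0.52.

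Lists of tissues outside the neural tube were measured as well, again beside 2.68% risen, 0.951% fallen and a median of 0.01 over all genes tested. Of 8 meninges genes 1 rose (Foxd1), 2 fell (Col1a1 and Col1a2) and 5 did not pass, with a median of -0.04 and sums of 2190.8 to 2433.7 CPM in FGF2 embryos and 3527.8 to 4047.8 CPM in vehicle embryos. Of 6 skin genes 0 rose, 0 fell and 6 did not pass, with sums of 68.3 to 112 CPM in FGF2 embryos and 79.0 to 115 CPM in vehicle embryos. Of 4 tested genes of the pituitary and oral ectoderm 2 rose, 0 fell and 2 did not pass, with sums of 9.28 to 10.7 CPM in FGF2 embryos and 2.41 to 3.53 CPM in vehicle embryos. With single embryos left out, the number of risen genes ranged from 4 to 7 in the rostral midline list, 2 to 6 in the isthmus list, 1 to 4 in the thalamus list, 2 to 4 in the hypothalamus list, 6 to 12 in the ventral list, 3 to 10 in the hem list and 5 to 7 in the choroid plexus list. It ranged from 0 to 2 in the pituitary list, with 0 without vehicle 8 or vehicle 9, from 0 to 1 in the meninges and skin lists and from 0 to 5 among FGF feedback genes. In the same fits 3 to 12 of the dorsal pallium genes fell.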

How the data were processed

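One RNA-seq library per embryo was analysed (3 FGF2, 3 vehicle). The submitters' processing notes name the build NCBIM37 (mm9) and, without roles, bedtools 2.12.0, Bowtie2 2.1.0.0, TopHat2 2.0.9 and CASAVA 1.8. The deposited count files give whole-number counts of alignments over each gene's span, introns included, with the covered bases, the span length and the fraction of the span covered. The deposited RPKM files give RPKM per symbol. Neither their tool nor the use of strand in counting is given in the sources used here. Reads in overlapping spans count for each gene. Starts were counted from 0 in the files and are printed from 1.

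Counts were tested with edgeR 4.0.16 (filterByExpr, TMM scaling, robust quasi-likelihood fit) over 21983 genes in R 4.3.3, with Benjamini-Hochberg adjustment over all of them; called, risen or fallen means an adjusted p under 0.05. CPM are TMM-scaled. Log2 fold changes are FGF2 over vehicle, and RPKM were used for levels between genes. Floors are 3 reads. Libraries carry separate embryo numbers in the labels, and p-values measure the spread between them. Depths were 61489462 to 81532334 counts as deposited (32112664 for vehicle 9 if halved), and intervals cover counting error only.

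The genes named are the 5 ligands, list members that were called, FGF family list members, the nearest named gene on each side of each ligand and the 4 genes nearest in profile to each ligand that rose; Rax, En1, En2, Wnt1, Sp8, Hesx1 and Gsx1 were named as list markers after their values were seen, and some list members are not reported here by name. The ligands and the 15 gene lists were chosen with earlier results of these data known. Alternatives were RLE factors, library totals, other filters, single embryos left out, the embryo number as a block, sex as a covariate, DESeq2 1.42.0, voom with quality weights and limma 3.58.1, limma on log2(RPKM + 1) and log2(RPKM + 0.1), halved counts of vehicle 9 and non-overlapping spans. An alternative chosen after seeing the data left out FGF2 8 and vehicle 9 together. The scripts were tested on simulated data of the FGF2 comparison over 21634 genes, where 75 of 100 genes changed by 1 and 100 of 100 changed by 3 on the log2 scale were recovered with 11 false calls. Coding sequences were aligned with mafft 7.526, and exact permutation tests used scipy 1.17.1.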

Additional observations from a re-analysis of the deposited data

How the results depend on the processing

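The call of Fgf18 as not passing and the direction of all 5 ligands were kept under every alternative run (Fgf18 log2 fold change 0.48 to 1.34, adjusted p 0.085 to 0.413). Embryo sex as a covariate ended every ligand's call and left 0 ligands called, at log2 fold changes of 3.31 for Fgf3 (adjusted p = 0.107), 3.72 for Fgf15 (0.0585), 4.74 for Fgf17 (0.12) and 12.12 for Fgf8 (0.314), and left 5 genes called in all. In the other fits 3 or 4 ligands were called, the change being Fgf8, or Fgf15 where its overlapping span was left out. Fgf8 was not called with no filter on low counts (log2 fold change 7.00, adjusted p = 0.0977), with voom and quality weights (8.43, 0.056), or with RPKM plus 1 with and without a filter (2.33 in both, 0.0664 and 0.117). Fgf3 stayed called at 1.05 with RPKM plus 1 and 2.85 with RPKM plus 0.1, and Fgf8 was called at 4.98 with RPKM plus 0.1. Leaving out single embryos gave 6.25 to 12.13 for Fgf8. The values 12.12 and 12.13 were fitted against vehicle embryos without an Fgf8 read and depend on the prior count. Without FGF2 8 and vehicle 9 together, all 4 called ligands stayed called (Fgf8 6.90, adjusted p = 0.0304). Fgf15 could not be fitted among non-overlapping spans, since it overlaps Gm17685. The number of called genes, 799, was 2065 with DESeq2, 2259 with voom and quality weights, 432 with RPKM plus 1, 431 with RPKM plus 0.1, 271 with RPKM plus 1 of all symbols, 488 among non-overlapping spans, 2046 without FGF2 8 and vehicle 9, and 218 to 1943 with single embryos left out. The embryo numbers 7 and 8 occur in both groups, and the labels state no batch. The deviations of same-numbered embryos correlated at -0.0434 and -0.0184 over genes, which cannot show whether such embryos shared a litter or batch. With the replicate block 703 genes were called and Fgf8 was not (log2 fold change 5.83, adjusted p = 0.475). Fgf3, Fgf15 and Fgf17 stayed called in that edgeR fit, at 3.70, 3.49 and 4.75 (adjusted p = 0.000173, 1.59e-05 and 3.06e-07). Only embryos numbered 7 and 8 bear on the group difference in it. Fgf8 had 12 reads in all vehicle embryos, which limits the precision of its fold change, beside the spread of its level among FGF2 embryos. The ratio tests could not give a p below 0.1 under any setting, although the size of the differences moved.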

Other observations

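The deposited count files also give a covered share of each gene's span. This share is not plainly that of bases read, since 58 Fgf18 reads in vehicle 7 gave 99.4% of a span of 29971 bases. How introns skipped by spliced alignments were treated is not stated in the sources used here. The shares are therefore given as deposited. Fgf8 was covered over 100%, 100% and 99.5% of its span in FGF2 embryos 6, 7 and 8, against 0%, 57.6% and 0% in vehicle embryos 7, 8 and 9, where vehicle 8 holds all 12 vehicle reads of the gene. Fgf3 was covered over 96.8%, 97.1% and 96.6% in FGF2 embryos 6, 7 and 8, against 16.6%, 11.7% and 30.9% in vehicle embryos 7, 8 and 9. Among vehicle embryos, vehicle 9 had the fewest Fgf3 reads and the largest covered share. For Fgf17 the covered share was 67.3%, 83.1% and 20.9% in vehicle embryos 7, 8 and 9, and for Fgf18 99.4%, 99.7% and 25.4%. Vehicle 9, whose alignments may have been counted double, had the lowest coverage of Fgf17 and Fgf18 among the vehicle embryos. The median over 18582 genes with at least 20 reads in every library was 98.8% in vehicle 9, against 99.7% to 99.8% in the other 5 libraries.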
